A study of Mus musculus with 12 samples.

Results

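Interferon-stimulated genes were followed through the GPR174 B cell experiment by a list of 47 gene symbols that covers the classical type I interferon response and the GTPases that interferon-γ also induces. The list was set by name rather than by a cut on measured values, but it was chosen with earlier results of these data known. All 47 symbols were rows of both deposited count tables, which shared 12837 genes. RNA came from follicular B cells (CD21/35- CD23+), the main recirculating B cell of the spleen, sorted from adult male mice. *Gpr174*+/Y mice (WT) carried the intact X-linked receptor gene, and *Gpr174*-/Y mice (KO) carried an allele in which a tdTomato reporter took the place of the coding exon. Cells of each genotype were frozen after the sort (0 h) or held for 4 h in complete RPMI with no stimulus and no interferon added. Each of the 4 groups held 3 libraries, which are named by genotype, time and replicate number. Because the deletion is in every cell of the KO mice, effects within the B cell and effects of other KO cells before the sort cannot be told apart in these libraries.

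Type I interferon binds the IFNAR1 and IFNAR2 receptor pair, and the kinases JAK1 and TYK2 then phosphorylate STAT2. With IRF9 it enters the ISGF3 complex, which binds the interferon-stimulated response element (ISRE) in target promoters. Interferon-γ signalling acts on the gamma-activated site (GAS). B cells hold many of these genes at a low resting level that tonic interferon is known to maintain. The products detect foreign RNA, block its translation, degrade it or mark proteins with ISG15.

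RefSeq promoter windows (GRCm38.p6, 250 bases before to 50 after each annotated start) were matched by symbol for 36 of the 47 genes. No window was used for *Mx1*, *Mx2*, *Oas2*, *Usp18*, *Dhx58*, *Parp9*, *Parp14*, *Zbp1*, *Rtp4*, *Ly6e* and *Nlrc5*. The ISRE core, searched on both strands as GAAA, any pair of bases and GAAA again, was in the windows of 17 of the 36 genes (47.2%), against 1079 of 27025 genes with a window (3.99%). The GAS letters, TTCNNNGAA on both strands, were in 11 of the 36 (30.6%), against 9.55% of all genes. A GAS match can overlap an ISRE match where its last GAA starts the ISRE core, and a match describes the letters only. The stretches below are examples from genes that held an ISRE core and are named in the results that follow. They read 5′ to 3′ on the strand that holds the core, with the ISRE core in capitals.
Ifit1 (chr19:34640775-34640804, minus strand): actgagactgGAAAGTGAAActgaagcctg
Ifit3 (chr19:34583363-34583392, minus strand): accagaagagGAAAGTGAAActtaccactg
Isg15 (chr4:156200871-156200900, minus strand): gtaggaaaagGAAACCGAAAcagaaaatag
Oas3 (chr5:120777715-120777744, minus strand): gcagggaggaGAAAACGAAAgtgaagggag
Rsad2 (chr12:26456553-26456582, plus strand): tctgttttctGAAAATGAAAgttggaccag
Stat2 (chr10:128270266-128270295, minus strand): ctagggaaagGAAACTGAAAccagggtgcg
Irgm1 (chr11:48871425-48871454, minus strand): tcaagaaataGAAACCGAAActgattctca
Igtp (chr11:58199512-58199541, plus strand): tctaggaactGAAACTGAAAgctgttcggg
Irgm2 (chr11:58214903-58214932, plus strand): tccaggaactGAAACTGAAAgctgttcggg
Gbp2 (chr3:142620594-142620623, minus strand): ttaagacagtGAAAGTGAAActaaaagagt

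With the annotated start counted as 0, the cores shown began between position -222 (*Stat2*) and position -24 (*Irgm1*). *Isg15* held 3 overlapping cores, and *Ifit1*, *Ifit3* and *Irgm1* held 2 each. No ISRE core was in the windows of *Irf7*, *Irf9*, *Irf1*, *Trim25*, *Samhd1*, *Oasl1* or *Oasl2*, and the windows of *Irf1* and *Samhd1* held the GAS letters. Several members are neighbours. *Ifit2*, *Ifit3* and *Ifit1* lie between 34550694 and 34650009 on chromosome 19 (GENCODE M21, GRCm38), and pairs of *Mx*, *Oas*, *Oasl* and *Gbp* genes sit within 100000 bases of each other. *Igtp* shares 7974 bases with the *Irgm2* annotation on the same strand, and *Parp9* and *Dtx3l* overlap by 682 bases on opposite strands. Counting with regard to strand was not stated, so reads in these overlaps, and reads shared by near-identical family members, make the values of those genes less certain.

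Libraries held 6098941 to 11618787 counts. The 6 B cell marker genes found under their symbols summed to 5192 to 7218 CPM, the count scaled to a common library size, while the 8 T cell markers found summed to 18.7 to 36.1 CPM and the 6 natural killer cell markers to 3.29 to 14.3 CPM. *Gpr174* itself was counted at 149, 150 and 157 CPM in WT 0 h and at 73.4, 76.4 and 74.1 CPM in KO 0 h. At 4 h it was at 163, 168 and 153 CPM in WT and at 118, 106 and 105 CPM in KO. Parts of this gene outside the replaced coding exon may still be counted in KO, and where its KO reads lie was not tested. WT exceeded KO in every library at both times. 1 library, WT 4 h replicate 3, stood apart from its group in the members and is described before the comparisons.

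Per kilobase of exon, the member with the highest level was *Ly6e*, which encodes a lipid-anchored surface protein, at 579 CPM per kb in WT 0 h. *Trim25*, the ubiquitin ligase that activates RIG-I, followed at 131 CPM per kb and *Samhd1*, which depletes nucleotides, at 111 CPM per kb. In CPM not divided by length, *Trim25* and *Samhd1* kept apart from each other at 0 h: 723 to 797 CPM against 993 to 1051 CPM in WT. The nuclear body gene *Sp100* was at 62.3 CPM per kb. *Trim30a*, *Stat2*, *Ifi35*, *Ifi47*, *Irf1*, *Ddx58* (which encodes RIG-I) and *Parp14* lay between 28.1 and 44.5 CPM per kb in WT 0 h. The lowest of the members tested were *Ifit1* at 1.49, *Mx2* at 1.47 and *Ifih1*, which encodes the RNA sensor MDA5, at 0.885 CPM per kb. *Ifi44* was lower still, at 0.0904 CPM per kb. It was at 0.105 to 2.40 CPM in the 12 libraries and passed the filter on low counts in no comparison. The other 46 members were tested, apart from *Ifit1* in the genotype comparison at 4 h.

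**Figure D1:**
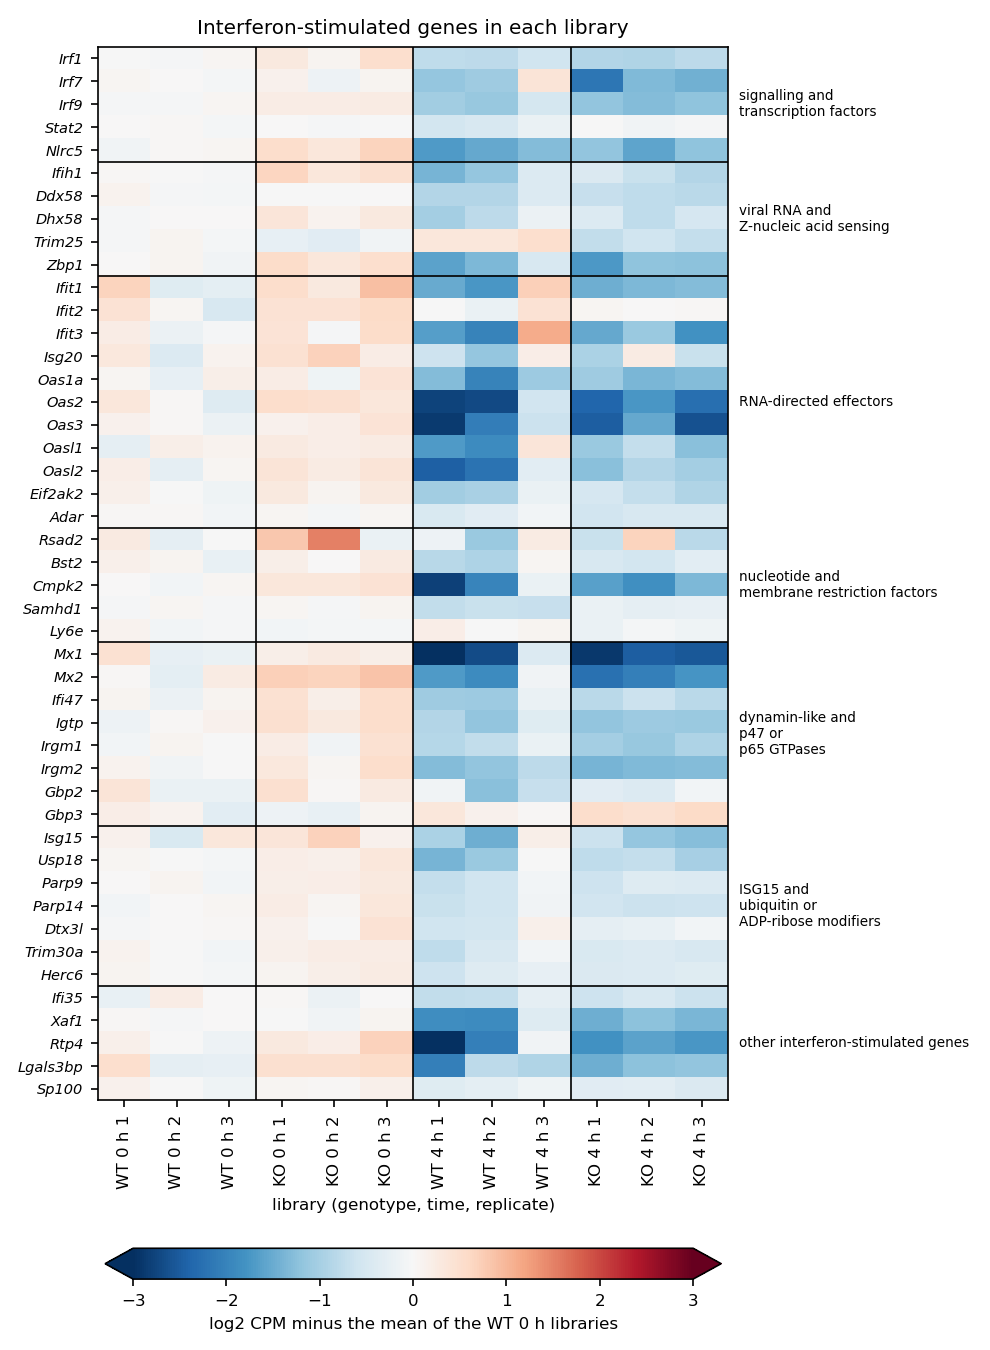
Heat map of 46 members (rows, grouped by role) in the 12 libraries (columns). Color gives log2 CPM (prior count 2) minus the mean of the WT 0 h libraries, and the scale ends at -3 and 3, which *Mx1* (-4.46) and *Rtp4* (-3.32) in WT 4 h replicate 1 pass. The KO 0 h columns are mostly slightly red, the 4 h columns mostly blue, and WT 4 h replicate 3 is paler than the other 5 libraries of its time.

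The median member stood at 0.07, -0.01 and -0.04 in the WT 0 h libraries on the log2 CPM scale relative to the WT 0 h mean, and at 0.25, 0.16 and 0.30 in KO 0 h. After culture it was at -0.98 in WT replicate 1, -1.10 in replicate 2 and -0.19 in replicate 3, and at -0.79, -0.74 and -0.90 in KO. The median member was therefore nearer the WT 0 h mean in WT 4 h replicate 3 than in the other 5 cultured libraries. The median over all genes tested lay between -0.02 and 0.01 in every library.

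In WT 4 h replicate 3, 16 of 46 members (34.8%) were more than 2-fold above the mean of replicates 1 and 2 on the log2 scale, against 137 of 11572 genes tested (1.18%). It held the highest of the 3 WT 4 h values in 41 members. In each of the other 11 libraries, 0 to 2 members exceeded the mean of their own group's other libraries by that much. *Ifit3*, whose product stabilizes IFIT1 on foreign RNA, was counted at 3.87, 2.96 and 27.6 CPM in WT 4 h replicates 1 to 3. *Mx1*, a dynamin-like antiviral GTPase, was at 0.323, 1.71 and 9.28 CPM, the first of these from 2 reads. *Oasl2*, a member of the oligoadenylate synthetase family, was at 4.03, 4.83 and 18.7 CPM. The third replicate was thus several times the others for these genes, while its WT 0 h namesake was not high (12.3 CPM for *Ifit3* against 14.9 and 11.1). *Rtp4*, *Ifit1*, *Cmpk2*, *Oasl1* and *Oas2* differed by 2.15 to 2.57 on the log2 scale. *Samhd1* (606, 636 and 626 CPM), *Ly6e* and *Gbp2* did not stand apart in that library, with log2 differences of 0.01, -0.01 and 0.00.

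**Figure D2:**
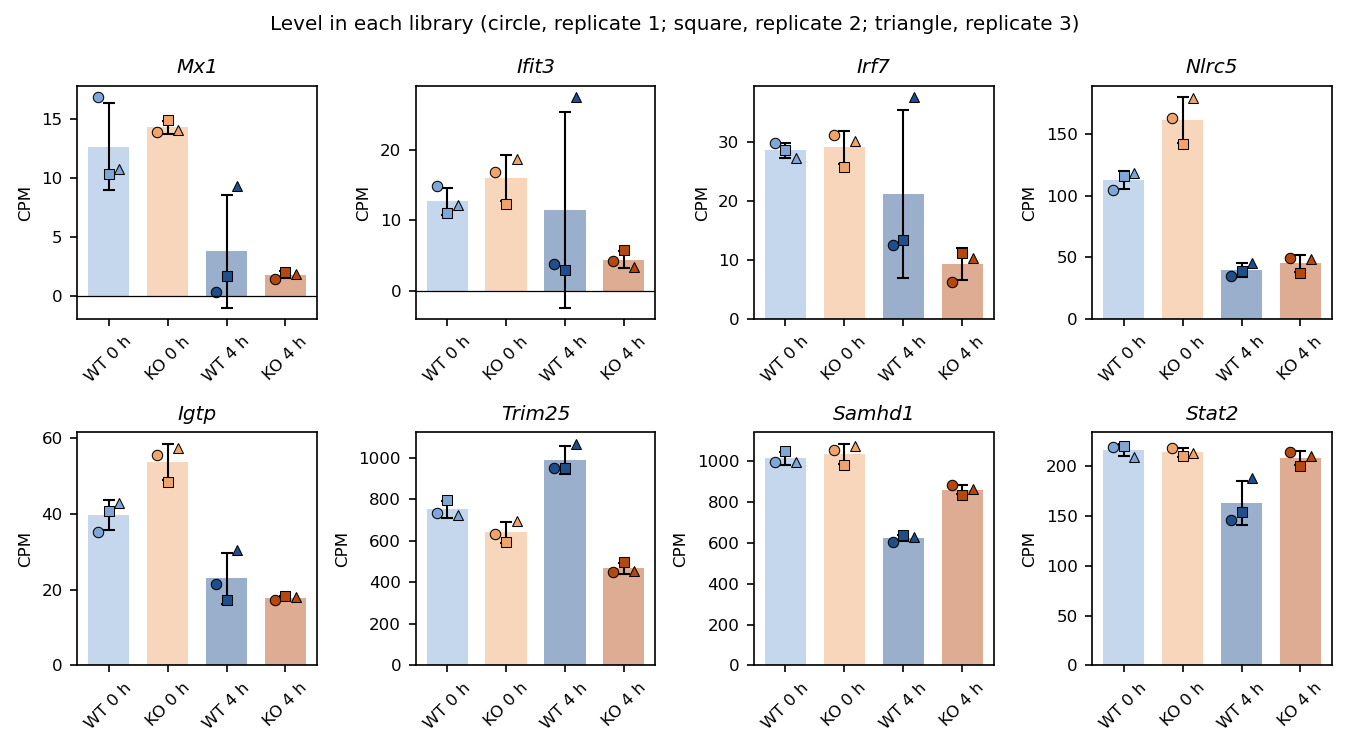
Level of 8 members in CPM (y axes, from 0 except where an error bar passes below it) in the 4 groups. Bars are means and error bars SD over 3 libraries, and symbols are single libraries. WT 4 h replicate 3 (triangle) is at 27.6 CPM for *Ifit3* and 37.5 CPM for *Irf7*, above the other WT 4 h libraries, while *Trim25* and *Samhd1* separate WT from KO at 4 h in every library.

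To see whether that library was high in all genes that culture lowers, 460 genes were taken that fell by more than 2-fold in WT when it was left out. Its place was then given between the other WT 4 h libraries (0) and the WT 0 h mean (1). The 24 members among them had a median place of 0.81 and 20 of them were at or above the midpoint. The 10 further interferon-stimulated genes, from a longer list, had a median of 0.41, and the 426 other genes a median of 0.07, of which 13.6% were at or above the midpoint. The other genes included *Ifit3b* (1.82) and *Ifi27* (0.15) of the longer list, which the tables hold under older symbols. *Ifit3* (1.61), *Ifit1* (1.44), *Irf7* (1.35), *Isg15* (1.14) and *Oasl1* lay above the WT 0 h mean itself. Of the markers of other cells, the T cell and natural killer cell sums were highest in that library within its group. The T cell sum was 25.4 CPM against 18.7 and 20.7, and the natural killer cell sum 9.17 against 3.87 and 6.70. The macrophage sum was 28.6 CPM against 23.5 and 34.3, and the neutrophil sum 29.5 against 50.0 and 20.4. What set that library apart was not tested, and the comparisons below are given with and without it. It was singled out by its high values in these same members. Fits without it therefore favour lower WT 4 h values in them, and their p-values and counts are descriptive.

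**Figure D3:**
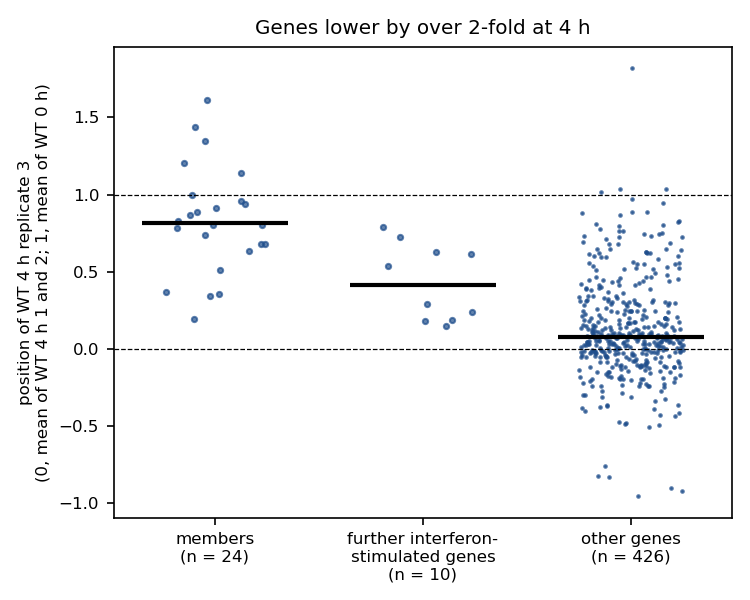
Place of WT 4 h replicate 3 (y axis, 0 at the mean log2 CPM of WT 4 h replicates 1 and 2, 1 at the WT 0 h mean) for genes that fell more than 2-fold in WT culture without it. Points are genes and lines are medians. The 24 members center on 0.81 and the 426 other genes on 0.07.

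Most interferon-stimulated genes were lower after 4 h in culture in both genotypes. In KO, 40 of 46 members fell from 0 h to 4 h at an adjusted p under 0.05 (edgeR), where 13% of all genes tested fell, and 1 rose, where 10.3% of all genes rose. The median member changed by -1.16 on the log2 scale, against 0.00 for all genes, and 25 members fell by more than 2-fold, where 2.76% of all genes did. In WT, 33 members fell, where 18% of all genes fell, 1 rose, where 15.1% rose, and the median was -0.63. Without WT 4 h replicate 3, 40 fell in WT (15.5% of all genes) and 1 rose (12.2% of all genes) with a median of -1.02, and 24 rather than 12 fell by more than 2-fold, where 3.93% and 3.92% of all genes did. Of the 41 calls in KO, 5 were lost in at least 1 alternative, those of *Bst2*, *Dtx3l*, *Ifit3*, *Isg20* and *Oasl1*. Of the 34 calls in WT, 9 were, those of *Adar*, *Cmpk2*, *Gbp2*, *Mx1*, *Mx2*, *Parp9*, *Rtp4*, *Sp100* and *Usp18*. In KO the 3 libraries of each time did not overlap for 41 lower members, where 21.1% of all genes had that pattern. The same held in WT for 28 members (21.1% of all genes), and for 40 without replicate 3 (24.5% of all genes). In these bulk libraries, fewer expressing cells and less RNA per cell cannot be told apart. The 0 h and 4 h libraries were also deposited as separate tables, so any difference in counting between tables cannot be told apart from culture.

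Among the signalling and transcription factors, 4 of 5 fell in KO (13% of all genes). *Irf9*, the DNA-binding part of ISGF3, was at 112, 111 and 119 CPM in WT 0 h and at 55.0, 52.0 and 78.9 CPM in WT 4 h. In KO it went from 132, 133 and 136 CPM to 50.1, 45.8 and 49.4 CPM. The times did not overlap in either genotype, and the log2 change was -0.86 ± 0.10 (SE) in WT and -1.47 ± 0.11 in KO (edgeR adjusted p = 1.02e-06 and 1.2e-09, n = 3 libraries per group). *Nlrc5*, the transactivator of MHC class I genes, fell by 1.49 ± 0.11 on the log2 scale in WT and 1.84 ± 0.11 in KO, and WT 4 h replicate 3 was close to its group for this gene (34.7, 38.9 and 45.8 CPM). *Stat2*, the STAT unique to ISGF3, fell in WT by 0.40 ± 0.07 on the log2 scale but changed by -0.04 ± 0.07 in KO (adjusted p = 0.73). *Irf7*, the factor that amplifies type I interferon production, fell in KO by 1.65 ± 0.29. In WT its change was -0.37 ± 0.26 (adjusted p = 0.30), and -1.13 ± 0.18 without replicate 3 (adjusted p = 5.28e-05).

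All 5 nucleic acid sensors or their partners fell in KO (13% of all genes). *Zbp1*, a sensor of Z-form nucleic acid, fell by 1.85 ± 0.19, *Ifih1* by 1.19 ± 0.24, *Dhx58* by 0.84 ± 0.16 and *Ddx58* by 0.75 ± 0.09 on the log2 scale. The same 4 fell in WT, while *Trim25* rose there. *Trim25* was at 734, 797 and 723 CPM in WT 0 h and at 952, 951 and 1069 CPM in WT 4 h. It was at 632, 597 and 695 CPM in KO 0 h and at 449, 499 and 454 CPM in KO 4 h. The gene thus moved in opposite directions without overlap between times in either genotype, by 0.40 ± 0.06 in WT (adjusted p = 4.08e-05) and -0.46 ± 0.06 in KO (adjusted p = 1.59e-05).

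Of the 11 genes whose products act on RNA, 10 fell in KO (13% of all genes). In WT 6 fell (18% of all genes), or 10 without replicate 3 (15.5% of all genes). The oligoadenylate synthetases, which activate RNase L, were among them. *Oas2* went from 37.0, 35.8 and 32.2 CPM to 4.74, 7.41 and 5.16 CPM in KO, a log2 change of -2.59 ± 0.35 (adjusted p = 9.61e-06). *Oas3* fell by 2.41 ± 0.33 in KO and *Oas1a* by 1.45 ± 0.24 in WT, and for both genes the times did not overlap in either genotype. *Eif2ak2*, the kinase PKR that stops translation, fell by 0.93 ± 0.15 and *Adar*, the RNA-editing deaminase, by 0.53 ± 0.08. *Ifit2* was the exception in this group, at 18.4, 18.4 and 20.2 CPM before and 14.2, 13.6 and 14.0 CPM after culture of KO cells (-0.45 ± 0.19, adjusted p = 0.096). Its relatives *Ifit3* and *Ifit1* fell by 1.84 ± 0.51 and 2.14 ± 0.53 in KO. In WT the change of *Ifit3* was -0.04 ± 0.45 with all libraries and -1.89 ± 0.28 without replicate 3, and that of *Ifit1* was -0.37 ± 0.47 and -1.91 ± 0.47.

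Of 8 GTPase genes, 6 fell (13% of all genes) and 1 rose (10.3% of all genes) in KO, and 7 fell in WT (18% of all genes). *Mx1* fell by 2.98 ± 0.51 and *Mx2*, annotated as a polymorphic pseudogene, by 2.99 ± 0.39 in KO on the log2 scale. *Mx2* was at 8.72, 8.55 and 9.64 CPM in KO 0 h and at 0.922, 1.08 and 1.36 CPM in KO 4 h, 7 to 10 reads per library at the later time. The p47 GTPases that attack pathogen vacuoles also fell in KO, *Irgm2* by 1.66 ± 0.12, *Igtp* by 1.59 ± 0.14, *Irgm1* by 1.24 ± 0.14 and *Ifi47* by 1.15 ± 0.16, and all 4 fell in WT. *Gbp3*, a p65 guanylate-binding protein, was the 1 member that rose in KO, from 48.6, 46.6 and 57.3 CPM to 77.7, 74.0 and 80.8 CPM (0.61 ± 0.11, adjusted p = 0.00043). *Gbp2* changed by -0.57 ± 0.21 in KO (adjusted p = 0.057).

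With all libraries, the 7 ISG15 and ubiquitin or ADP-ribose modifiers fell in KO (13% of all genes). The falls were smaller apart from *Isg15* (-1.51 ± 0.38) and *Usp18*, the protease that removes ISG15 (-1.06 ± 0.22). The call of *Dtx3l* (-0.40 ± 0.14, adjusted p = 0.041) was lost in 6 of 12 fits that left out a library and with DESeq2, with adjusted p up to 0.222. *Isg15* itself was low, at 9 to 61 reads per library. Of the restriction factors, *Cmpk2*, a mitochondrial nucleotide kinase, fell by 2.01 ± 0.35 in KO, and *Bst2*, the tetherin that holds virions at the membrane, by 0.61 ± 0.20. *Samhd1* fell in both genotypes, with changes of -0.70 ± 0.05 in WT and -0.27 ± 0.05 in KO. *Ly6e* changed by 0.08 ± 0.06 in WT and -0.06 ± 0.06 in KO and passed the test in neither. Among the remaining genes, *Rtp4* (-2.19 ± 0.40), *Lgals3bp* (-1.83 ± 0.24), *Xaf1* (-1.36 ± 0.24), *Ifi35* (-0.55 ± 0.12) and *Sp100* (-0.45 ± 0.07) all fell in KO, and all 5 fell in WT.

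**Figure D4:**
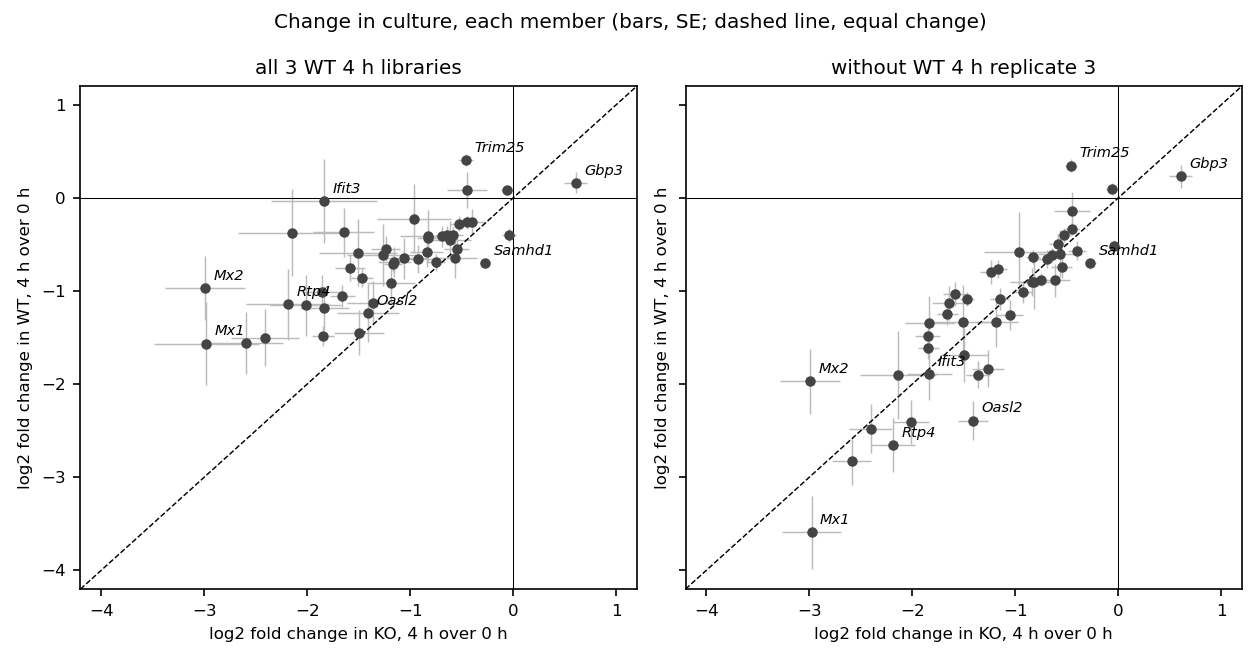
Log2 fold change from 0 h to 4 h in WT (y axis) against KO (x axis) for 46 members, with all libraries (left) and without WT 4 h replicate 3 (right). Points are genes, bars are SE and the dashed line marks equal change. Most points lie above the line on the left and along it on the right, and *Trim25* is above 0 in WT in both panels.

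The members were also divided by their promoter letters. The 17 with an ISRE core in the window had a median log2 change of -1.19 in KO culture. Of these, 14 passed the test, among them *Gbp3*, which rose. The 18 tested members whose window did not hold it had a median of -0.99 and 17 passed, all of them lower. Over all genes tested, 13% fell and 10.3% rose in KO. In WT 4 h replicate 3 the median excess was 0.66 for the former (-0.20 to 2.94) and 0.55 for the latter (0.01 to 2.19).

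For *Rsad2* and *Isg20*, KO replicate 2 held the highest KO value at both times. *Rsad2*, which encodes the radical-forming enzyme viperin, was at 43.7, 71.3 and 21.3 CPM in KO 0 h and at 15.4, 39.6 and 14.0 CPM in KO 4 h, so replicate 2 was highest at both times. *Isg20*, an RNA exonuclease gene, was at 34.4, 41.0 and 29.3 CPM in KO 0 h, and replicate 2 was again the highest at both times. The neutrophil markers found (3 of 6) summed to 107 CPM in KO 0 h replicate 2 and 100.3 CPM in KO 4 h replicate 2, against 18.6 to 72.1 CPM in the other 10 libraries. The erythroid markers found (2 of 6) also stood apart there, at 125 CPM in KO 0 h replicate 2 and 95.8 CPM in KO 4 h replicate 2. They summed to 40.5 to 79.3 CPM in the other 10 libraries. The part of such cells in the level of *Rsad2* and *Isg20* was not tested. With all libraries *Rsad2* passed the test in no comparison (-0.96 ± 0.36 in KO culture, adjusted p = 0.057), and the same change had an adjusted p of 0.0478 without WT 4 h replicate 3. Its change was -1.62 without KO 4 h replicate 2 and -0.49 without KO 0 h replicate 2. *Isg20* fell in KO culture (-0.82 ± 0.27, adjusted p = 0.034). Its change was -1.28 without KO 4 h replicate 2, and the call was lost in 4 of 12 fits that left out a library and with DESeq2, with adjusted p up to 0.174.

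The genotypes at 4 h were then compared to ask whether the receptor alters these genes in cultured B cells. Of 45 members tested, 4 were higher in WT (5.22% of all genes) and 3 lower (5.67% of all genes), and the median log2 difference of WT over KO was 0.15. WT lay above KO without overlap for 6 members, where 14.1% of all genes did, and below for 3, where 13.7% did. Without WT 4 h replicate 3, 1 was higher (3.79% of all genes) and 5 lower (4.03% of all genes), and the median was -0.28. The single library thus decided the sign of the median, and the count of members above 0 went from 33 to 12. Leaving out WT 4 h replicate 1 or 2 instead gave 7 or 8 members higher, and leaving out any KO 4 h library gave 1. The count lower was 1 without KO 4 h replicate 1.

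*Trim25* and *Samhd1* differed in all 12 alternatives. WT exceeded KO without overlap (952 to 1069 CPM against 449 to 499 CPM), by 1.09 ± 0.07 on the log2 scale (adjusted p = 2.15e-08), or 1.03 ± 0.07 without replicate 3. *Samhd1* was lower in WT, at 606, 636 and 626 CPM against 883, 836 and 861 CPM in KO, by -0.46 ± 0.06 (adjusted p = 3.43e-05) and the same without replicate 3 (adjusted p = 0.000268). *Stat2* was also lower in WT, at 146, 154 and 188 CPM against 214, 200 and 210 CPM. Its difference was -0.35 ± 0.08 (adjusted p = 0.010), or -0.46 ± 0.07 without replicate 3, and its adjusted p was 0.0526 without KO 4 h replicate 1. These 3 genes therefore differed between genotypes in both settings, 1 upward and 2 downward.

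The other 4 calls were each lost in 3 or more of the 6 fits that left out a library. *Irf7* was at 12.6, 13.4 and 37.5 CPM in WT 4 h and at 6.19, 11.2 and 10.3 CPM in KO 4 h. The WT values all exceeded the KO values, and the difference was 1.24 ± 0.35 (adjusted p = 0.030), but 0.49 ± 0.23 without WT 4 h replicate 3 (adjusted p = 0.25). *Irgm1* (0.48 ± 0.14, adjusted p = 0.042) came to 0.23 ± 0.11 (adjusted p = 0.25), *Ly6e* (0.21 ± 0.06, adjusted p = 0.046) to 0.22 ± 0.07 (adjusted p = 0.083) and *Gbp3* (-0.35 ± 0.09, adjusted p = 0.015) to -0.27 ± 0.09 (adjusted p = 0.088) without that library. In the other direction, *Oasl2* was lower in WT only once it was left out. The values were 4.03 and 4.83 CPM in the remaining WT libraries against 9.62, 12.4 and 11.3 CPM in KO, a log2 difference of -1.32 ± 0.23 (adjusted p = 0.002), against -0.18 ± 0.39 with all libraries. *Oasl1* (-0.80 ± 0.23, adjusted p = 0.049) and *Dtx3l*, the ubiquitin ligase that partners PARP9 (-0.37 ± 0.09, adjusted p = 0.015), passed the test in that setting as well. With 2 WT libraries left, 20 of 45 members were below KO without overlap, where 18.4% of all genes were, and 6 above, where 18.1% were. Since WT 4 h replicate 3 was picked for its high values in these members, leaving it out favours lower WT values by construction.

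**Figure D5:**
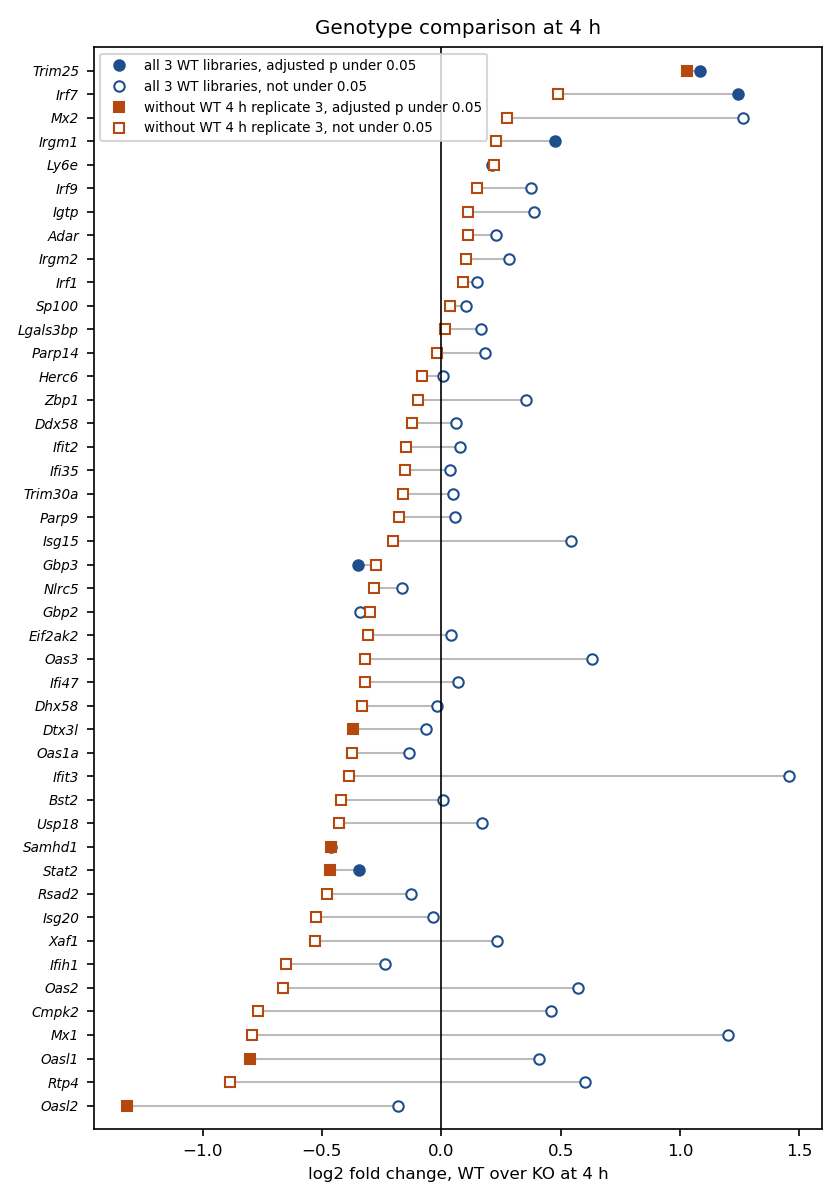
Log2 fold change of WT over KO at 4 h (x axis) for 45 members (rows), with all 3 WT libraries (circles) and without WT 4 h replicate 3 (squares). Filled symbols passed an adjusted p under 0.05. *Ifit3* goes from 1.46 to -0.39 and *Cmpk2* from 0.46 to -0.77, while *Trim25*, *Samhd1* and *Stat2* stay filled.

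In uncultured cells 41 of 46 members were lower in WT than in KO, with a median log2 difference of -0.24 against 0.00 for all genes. Few of these differences passed the test: 0 members were higher in WT (0.502% of all genes) and 4 lower (0.485% of all genes) by edgeR. At an unadjusted p under 0.05 these were 1 (6.79% of all genes) and 25 (5.92% of all genes), and DESeq2 called 1 (0.714% of all genes) and 5 (0.643% of all genes). The libraries of the genotypes did not overlap for 18 members lower in WT, where 7.86% of all genes had that pattern, and for 1 member higher, where 10.4% had it. That member was *Trim25* (0.22 ± 0.06, adjusted p = 0.082).

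*Nlrc5* was at 104, 116 and 118 CPM in WT 0 h and at 163, 142 and 179 CPM in KO 0 h, a log2 difference of -0.53 ± 0.08 (adjusted p = 0.0024). It passed the test in all 12 alternatives, with adjusted p up to 0.019. *Zbp1* was at 41.4, 43.5 and 38.2 CPM in WT and at 60.3, 51.6 and 58.7 CPM in KO (-0.48 ± 0.09, adjusted p = 0.017). *Igtp* was at 35.3, 40.7 and 43.0 CPM in WT and at 55.7, 48.5 and 57.4 CPM in KO (-0.45 ± 0.10, adjusted p = 0.038). *Ifi47* was at 84.9, 70.6 and 85.1 CPM in WT and at 109, 90.1 and 116 CPM in KO (-0.40 ± 0.09, adjusted p = 0.049). Every KO library was above every WT library for these 4 genes. The calls of *Zbp1*, *Igtp* and *Ifi47* were lost with adjusted p up to 0.198, 0.29 and 0.305 in other fits. With KO replicate 1, 2 or 3 left out in turn, 1, 7 and 2 members were lower in WT at 0 h, and with WT replicate 1, 2 or 3 left out, 6, 2 and 1 were. The 12 proliferation markers summed to 257 to 355 CPM in WT 0 h and 472 to 652 CPM in KO 0 h. Of these markers, 5 were lower in WT (0.485% of all genes). Their part in the higher levels of these members was not tested.

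The interaction asked directly whether culture changed a gene differently in WT and KO. Of 46 members, 7 had a more positive change in WT (2.45% of all genes) and 2 a more negative one (3.94% of all genes), and the median was 0.41. Without WT 4 h replicate 3 these were 2 (1.94% of all genes) and 3 (3.31% of all genes) with a median of 0.00. *Trim25* (0.86 ± 0.09, adjusted p = 1.59e-06), *Samhd1* (-0.43 ± 0.07, adjusted p = 0.000347) and *Irf9* (0.61 ± 0.15, adjusted p = 0.013) passed in all 18 alternatives, and *Irf9* came to 0.38 ± 0.10 without that library. *Stat2* (-0.36 ± 0.10, adjusted p = 0.035) passed without WT 4 h replicate 3 (-0.48 ± 0.08) but in only 3 of 12 fits that left out a library, with adjusted p up to 0.096. *Mx2*, *Igtp*, *Irgm1*, *Irgm2* and *Irf1* lost the call without that library, with adjusted p from 0.076 to 0.32 and the sign kept. Their differences were then 1.02, 0.55, 0.44, 0.41 and 0.40. *Igtp* lost the call only there, while *Mx2*, *Irgm1*, *Irgm2* and *Irf1* passed in 6, 5, 4 and 6 of the 12 fits that left out a library. The number with a more positive change was 14 without WT 4 h replicate 1 and 10 without replicate 2. It was 3 when replicate 1 or 3 of KO 0 h, or replicate 1 or 2 of KO 4 h, was dropped, and 4 when replicate 2 of WT 0 h was. The number with a more negative change was 1 in 9 of the 12 fits that dropped a library, 2 without KO 4 h replicate 2 and 3 when replicate 3 of WT at 0 h or at 4 h was dropped.

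The rest of the pathway was read from lists of its parts. None of the 7 interferon ligand genes was in both tables, and only *Ifng* was in 1 of them. Of 5 receptor genes found under their symbols, 3 were higher in WT at 4 h, where 5.22% of all genes were. *Ifngr1*, which binds interferon-γ, was at 106, 100.5 and 105 CPM in WT and at 74.8, 77.3 and 74.6 CPM in KO (0.46 ± 0.06, adjusted p = 0.00016) and kept its call without WT 4 h replicate 3 (adjusted p = 0.00115). *Ifnar1* (0.20 ± 0.06) and *Ifngr2* (0.23 ± 0.07) did not, with adjusted p of 0.105 and 0.136.

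*Stat3*, which serves interleukin signals as well, rose in WT (0.80 ± 0.06) and fell in KO (-0.51 ± 0.06), and at 4 h was at 304, 330 and 344 CPM in WT against 145, 149 and 159 CPM in KO (1.11 ± 0.06, adjusted p = 1.55e-08). *Jak1* was higher in WT at 4 h (0.27 ± 0.06) and *Irf8* lower (-0.33 ± 0.06), with both calls kept without WT 4 h replicate 3.

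Of 6 negative regulators, *Socs3*, an inhibitor of JAK kinases, fell by 2.49 ± 0.20 in KO and by 0.82 ± 0.18 in WT, and the phosphatase gene *Ptpn6* fell by 1.06 ± 0.06 in KO and by 1.74 ± 0.06 in WT. At 4 h WT was higher for *Socs3* (1.14 ± 0.23) and lower for *Ptpn6* (-0.70 ± 0.07). Of the 11 genes of nucleic acid sensing upstream of interferon that were found, 6 fell and 1 rose in culture in each genotype. Over all genes tested, 18% fell and 15.1% rose in WT, and 13% fell and 10.3% rose in KO. The largest falls were those of the endosomal receptors *Tlr3* (-1.46 ± 0.27 in WT) and *Tlr7* (-1.27 ± 0.18 in WT and -1.47 ± 0.18 in KO), the sensors of double-stranded and single-stranded RNA.

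A longer list of 81 further interferon-stimulated genes, of which 67 were in both tables under their symbols, was read in the same way. Of 64 tested, 43 fell (18% of all genes) and 5 rose (15.1% of all genes) in WT, and 39 fell (13% of all genes) and 3 rose (10.3% of all genes) in KO, with medians of -0.40 and -0.37. The interferon-inducible GTPase gene *Gbp6* (-2.78 ± 0.47 in KO) and the membrane restriction factor *Ifitm3* (-2.18 ± 0.39 in KO) fell furthest among the genes named here, from mean levels of 5.43 and 7.62 CPM. The immunoproteasome genes *Psmb8*, *Psmb9* and *Psmb10* fell in both genotypes by 0.48 to 0.75 on the log2 scale. At 4 h, 11 of 62 were lower in WT than in KO (5.67% of all genes) and 2 higher (5.22% of all genes). Without WT 4 h replicate 3 these were 13 (4.03% of all genes) and 1 (3.79% of all genes). The lower ones included the DNA sensor family genes *Mndal* (-0.83 ± 0.09) and *Ifi203* (-0.70 ± 0.09) and the nonclassical MHC gene *H2-T23* (-0.71 ± 0.07). *Slfn5* was at 37.7, 34.4 and 127 CPM in the WT 4 h libraries, which places replicate 3 apart for it too. *Ifit3b*, a close copy of *Ifit3* listed under an older symbol, was at 0.484, 0.623 and 5.69 CPM there.

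The sorted cells also carried small amounts of RNA from other cells, and the macrophage sum fell with culture. The T cell sums overlapped between times, at 21.5 to 36.1 CPM at 0 h and 18.7 to 34.8 CPM at 4 h. The neutrophil sums did too, at 19.0 to 107 CPM and 18.6 to 100.3 CPM. The 7 macrophage and monocyte markers found under their symbols summed to 62.4 to 72.7 CPM in the 0 h libraries and 18.6 to 40.5 CPM in the 4 h libraries. *Adgre1*, listed under an older symbol and outside that sum, was at 1.47 to 11.7 CPM. It went the other way in KO culture (1.13 ± 0.40, edgeR adjusted p = 0.046) and changed by -0.29 ± 0.38 in WT culture (adjusted p = 0.60). *C1qa*, *C1qb*, *C1qc* and *Mertk* were in 1 table only. The 7 dendritic cell markers found include the member *Bst2*, and without it they summed to 16.4 to 24.4 CPM. The part of macrophage RNA in the fall of the members was not tested. Its marker sum in WT 4 h replicate 3 lay between those of the other WT 4 h libraries.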

How the data were processed

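Sorted follicular B cells were profiled in 12 libraries, 3 in each of 4 groups (WT and KO at 0 h and 4 h). The authors deposited raw counts per gene as whole numbers, with no normalization, in a table for each time. The study used NuGEN Ovation amplification and HiSeq2500 single-end reads, with STAR alignment to mm10 and HTSeq counting. Strand setting, annotation and versions were not given in the sources used here. Each table holds genes with at least 10 reads over its 6 libraries.

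Counts were tested with edgeR 4.0.16 in R 4.3.3 (TMM, filterByExpr, glmQLFit, glmQLFTest). Genotype was fitted within a time, culture and interaction over all 4 groups, and p-values were adjusted by Benjamini-Hochberg over all genes tested. A gene was called at adjusted p under 0.05. Fits were tested on simulated data. Values are CPM on TMM-scaled totals, and ± after a log2 change is SE. Alternatives were DESeq2 1.42.0, limma 3.58.1 (voom), other scalings, no filter, a replicate block, other samples in the fit and each library left out. Members, lists and motifs were chosen with earlier results of these data known. Members past the threshold in a comparison, the 10 with the highest mean CPM and those filtered were named first, with other members as examples. Genes of the pathway lists were named only where called in a comparison, apart from those singled out for WT 4 h replicate 3 after their values were seen. Replicates differed by more than sampling noise (chi-square per degree of freedom 1.943 to 9.3), and the study gives 3 mice per genotype. The labels do not tie libraries to mice, so p-values measure the spread between these libraries. No molecular identifiers were used, so depth of 6098941 to 11618787 counts gives counting error only. 1 gene of the pathway lists is not reported here.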

Additional observations from a re-analysis of the deposited data

Results flagged for a closer look

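In 9 members the culture change differed between WT and KO by the interaction test of edgeR (adjusted p under 0.05, log2 change in WT minus log2 change in KO). *Trim25* (0.86), *Samhd1* (-0.43) and *Irf9* (0.61) kept the difference whichever library was left out. *Trim25* rose in WT and fell in KO, *Samhd1* fell further in WT, and *Irf9* fell further in KO. *Stat2* (-0.36) fell in WT alone by its own test, and its difference kept the same sign in 12 of 12 fits that left out a library but passed in 3 of them. *Mx2* (2.02), *Igtp* (0.83), *Irgm1* (0.69), *Irgm2* (0.60) and *Irf1* (0.46) fell further in KO. Without WT 4 h replicate 3 these 5 no longer passed the test, with differences of 1.02, 0.55, 0.44, 0.41 and 0.40. All 5 kept their sign in 12 of 12 fits that left out a library, and passed in 6, 11, 5, 4 and 6 of them. At 0 h the log2 differences of WT over KO for these 5 were -0.76, -0.45, -0.22, -0.32 and -0.32. At 4 h they were 1.26, 0.39, 0.48, 0.28 and 0.15. Without WT 4 h replicate 3 the 4 h differences were 0.27, 0.11, 0.23, 0.10 and 0.09. The higher KO level at 0 h is thus part of each interaction.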

How the results depend on the processing

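The fall in culture kept its direction in every alternative. With 1 library left out, 36 to 42 members fell in KO (1 rose in each fit) with medians of -1.25 to -1.09, and 28 to 40 in WT (1 rose in each fit) with medians of -1.02 to -0.45. In the genotype comparisons the number of calls varied, and the sign of the median was kept at 0 h but not at 4 h. At 0 h, 0 to 1 members were higher and 1 to 7 lower in WT, with medians of -0.29 to -0.21. At 4 h, 1 to 8 were higher and 1 to 5 lower, with medians of -0.28 to 0.22. The interaction gave 2 to 14 more positive and 1 to 3 more negative members, with medians of -0.0033 to 0.51. The median at 4 h (-0.28) and that of the interaction (-0.0033) changed sign without WT 4 h replicate 3.

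DESeq2 called 1 member higher in WT at 0 h, and with all 4 groups in the fit 1 was lower there. With library totals alone, 2 members were higher in WT at 4 h, 2 rose in WT culture and 1 had a more negative interaction. Signs changed for members that had not passed the test. With 1 library left out, the log2 difference at 4 h ranged from -0.39 to 1.89 for *Ifit3*, -0.79 to 1.68 for *Mx1*, -0.80 to 0.76 for *Oasl1*, -1.32 to 0.15 for *Oasl2*, -0.77 to 0.85 for *Cmpk2*, -0.37 to 0.064 for *Dtx3l* and -0.88 to 1.04 for *Rtp4*, with the lowest value of each without WT 4 h replicate 3. The change in WT culture ranged from -1.91 to 0.076 for *Ifit1* and -1.89 to 0.39 for *Ifit3*, which came to 0.077 with library totals alone. The interaction of *Oasl2* ranged from -0.98 to 0.50 and came to -0.079 with limma-voom. Apart from values decided by WT 4 h replicate 3, the cause was not tested.

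Whether replicate numbers pair the 0 h and 4 h libraries was not settled. Deviations of same-numbered libraries correlated at 0.126, 0.0717 and 0.117 between times in WT, and at -0.0402, 0.145 and 0.152 in KO. Apart from KO replicate 1, the own number gave the best match. Between WT and KO, which are different mice, same-numbered libraries correlated at -0.0986 to 0.0728. The main fits held no pairing. With the replicate number as a block, 0 members were higher and 5 lower in WT at 0 h, 3 and 3 at 4 h, 1 rose and 35 fell in WT culture, 1 rose and 42 fell in KO culture, and 9 and 3 had a more positive and more negative interaction. Depth limits *Ifi44*, *Ifit1*, *Mx1*, *Mx2* and *Isg15*, which had under 20 reads in several 4 h libraries.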
